A study of Mus musculus with 12 samples.

Results

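Alcam and 4 further genes of cell adhesion molecules found on early heart muscle, Cdh2, Vcam1, Ncam1 and Itga6, were followed across 4 genotypes of mouse embryonic heart. They are 5 of the 19938 genes that the arrays measured with a probe set annotated to a single symbol, and each had 1 such probe set. Alcam was chosen by its measured log2 difference between double KO and WT hearts, where its RNA was far lower, and the other 4 were added as adhesion molecules of the same muscle. Its values in the double KO are therefore given as a description, with no test, and support no other result.

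The hearts were dissected at the E8.75 stage of mouse development, when the tube has begun to loop. The 3 mutant genotypes were the double KO (labelled Tbx5 KO;Nkx2-5 KO), the Nkx2-5 KO and the Tbx5 KO, and they were compared with WT. Each genotype had 3 arrays, numbered in the titles as biological replicates. The labels give neither the mutant alleles nor whether an array holds RNA of 1 heart or of several, and they name no Cre driver, so the KO groups are taken as labelled. Nkx2-5 and Tbx5 are transcription factors that bind each other and act together on heart muscle genes. With WT, both single losses and their combination side by side, a gene's level can be compared between the labelled genotypes. Some of these groups also differed in embryo sex, as given below.

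Adhesion molecules hold the muscle cells of the heart tube together and to the matrix beneath. Alcam (CD166) and Ncam1 are immunoglobulin-type molecules that bind their own kind on a neighbouring cell, and Alcam marks early differentiating heart muscle in the mouse embryo. Cdh2 (N-cadherin) is the calcium-dependent cadherin of muscle cell junctions, and Vcam1 is an immunoglobulin-type ligand on the muscle for integrins that contain the alpha 4 subunit. Itga6 is the integrin alpha subunit of laminin receptors.

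The RefSeq promoter table matched 1 of the 5 genes, Alcam. Its sequence is shown because no other of the 5 genes had an entry. The window is the 250 bases before the annotated start on the minus strand of GRCm38.p6, chr16:52453082-52453331. Capitals mark a CCAAT box, written here as its reverse complement, and 2 matches to the GC box letters GGGCGG, 1 of them on the other strand.
Alcam promoter: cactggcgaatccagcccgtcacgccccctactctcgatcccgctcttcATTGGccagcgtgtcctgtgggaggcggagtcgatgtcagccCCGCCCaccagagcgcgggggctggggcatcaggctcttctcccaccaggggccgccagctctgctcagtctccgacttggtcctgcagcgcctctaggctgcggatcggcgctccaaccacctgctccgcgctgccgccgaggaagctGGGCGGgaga
It holds 69.2% G and C. On both strands it was searched for the T-box core AGGTGT and the Nkx2-5 element TNAAGTG. Neither set of letters occurs in it, and 11.8% and 10.1% of the 32851 promoter windows of the same length hold them. CCAAT and GGGCGG occur in 33.8% and 32.7% of those windows. The absence of a match says only that these letters are not in this window.

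All 12 arrays carried strong signals of the heart muscle genes that define the dissected tissue, with the mean log2 level of 15 cardiomyocyte markers between 13.08 and 13.25. The probe sets of the targeted genes did not check the genotypes, because no label states what each mutation deletes. Nkx2-5 read 8.97 to 9.21 in double KO, 8.72 to 9.13 in Nkx2-5 KO, 9.31 to 9.38 in Tbx5 KO and 9.33 to 9.36 in WT hearts, and Tbx5 read 10.31 to 10.83, 10.15 to 10.53, 10.42 to 10.73 and 9.90 to 10.15 in the same groups. Sex-linked RNA split the groups. Xist, the RNA of X inactivation, read 6.44 to 8.16 in double KO and 6.59 to 7.03 in Nkx2-5 KO, against 11.46 to 12.32 in Tbx5 KO and 11.50 to 11.87 in WT hearts. The Y-linked gene Eif2s3y ran the other way, at 10.37 to 10.61, 10.33 to 10.67, 5.13 to 5.68 and 5.07 to 6.92 in the same groups. Uty, also Y-linked, read 9.22 to 9.49, 9.29 to 9.89, 5.44 to 6.01 and 5.38 to 6.67. Any comparison of double KO or Nkx2-5 KO with Tbx5 KO or WT hearts therefore carries a difference in embryo sex too. Genotype and sex cannot be told apart in it. WT replicate 2 stood apart in some markers of neighbouring tissue, with a mean of 9.01 for 8 epicardial markers, where the other WT arrays had 8.18 and 8.36. Its mean for 8 red cell markers was 9.88, where the other WT arrays had 11.41 and 11.18.

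**Figure D1:**
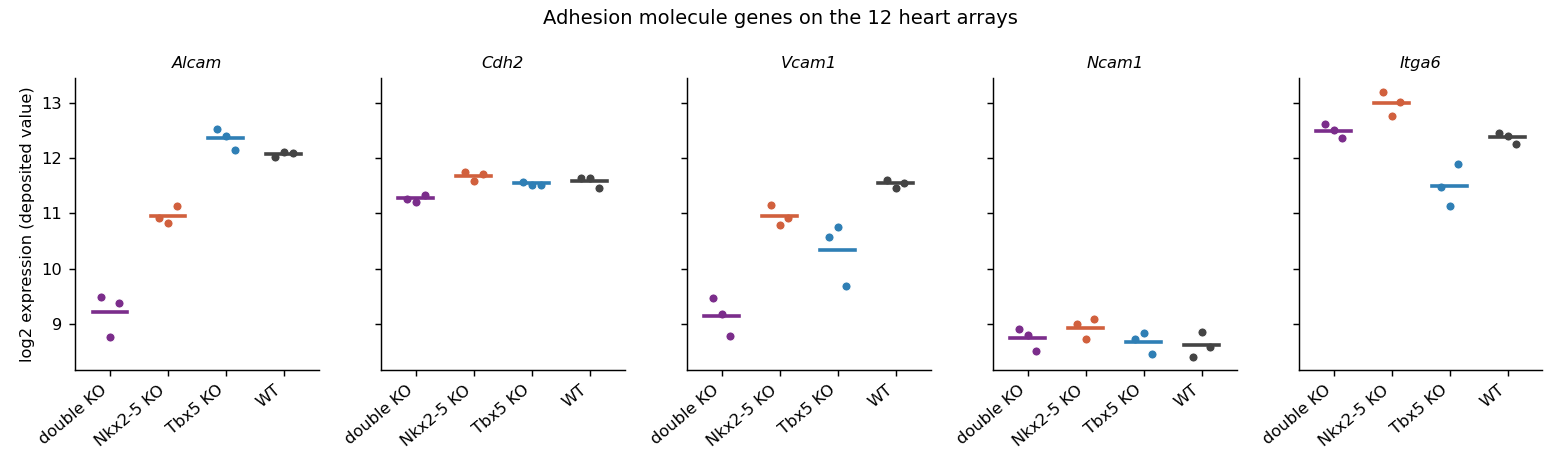
Deposited log2 expression (vertical axis) of Alcam, Cdh2, Vcam1, Ncam1 and Itga6 in double KO, Nkx2-5 KO, Tbx5 KO and WT hearts. Each point is 1 array and each line the mean of 3 arrays. Alcam averaged 9.21 in double KO and 12.07 in WT hearts, Vcam1 was lowest in double KO and highest in WT hearts, Itga6 was highest in Nkx2-5 KO and lowest in Tbx5 KO hearts, and the group means of Cdh2 and Ncam1 lay closer together.

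Alcam fell in Nkx2-5 KO hearts, was not called in Tbx5 KO hearts, and was lowest in double KO hearts. Its log2 level was 9.49, 8.76 and 9.38 in double KO hearts, 10.92, 10.83 and 11.14 in Nkx2-5 KO hearts, 12.53, 12.39 and 12.15 in Tbx5 KO hearts, and 12.01, 12.11 and 12.09 in WT hearts. No value of one genotype lay within the range of another, and the order from low to high was double KO, Nkx2-5 KO, WT, Tbx5 KO. In Nkx2-5 KO hearts Alcam fell by 1.11 ± 0.17 on the log2 scale (2.16-fold, SE, n = 3 arrays in each group, limma adjusted p = 0.00566), and this call held in all 20 alternative analyses, with adjusted p between 0.000859 and 0.0343. In bulk hearts, fewer cells that make a transcript and less transcript per cell cannot be told apart.

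In Tbx5 KO hearts Alcam differed from WT by 0.28 ± 0.17 (adjusted p = 0.486, 95% interval -0.08 to 0.65), so these neighbours in the order did not differ beyond their error. Set directly against the Nkx2-5 KO, the Tbx5 KO was 1.39 ± 0.17 higher (2.63-fold, adjusted p = 0.000596), a call that also held in all 20 alternatives. The comparisons with WT share the WT arrays, and the WT values of Alcam also took part in choosing it. Its tests against WT are therefore not independent of that choice.

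The values that chose Alcam are these. Double KO minus WT was -2.86 ± 0.17 (7.27-fold lower), and between -3.00 and -2.64 in the alternatives. Double KO minus Nkx2-5 KO was -1.75 ± 0.17 (3.37-fold lower), and double KO minus Tbx5 KO was -3.15 ± 0.17 (8.86-fold lower). The gene was thus below its level in either single mutant. Adding the 2 single KO changes gives -0.82 on the log2 scale, against -2.86 measured, a gap of -2.04 ± 0.24. Between hearts with like Xist levels, the difference was -1.75 for double KO minus Nkx2-5 KO and 0.28 for Tbx5 KO minus WT.

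Vcam1 fell in double KO hearts and, by less, in Tbx5 KO hearts. Its level was 9.47, 9.18 and 8.78 in double KO hearts, 11.15, 10.78 and 10.92 in Nkx2-5 KO hearts, 10.57, 10.75 and 9.69 in Tbx5 KO hearts, and 11.60, 11.46 and 11.55 in WT hearts. The 4 genotypes did not overlap, although Tbx5 KO replicate 3 was about 1 log2 unit below the other Tbx5 KO arrays. In double KO hearts Vcam1 fell by 2.39 ± 0.24 (5.26-fold, adjusted p = 3.84e-05). The double KO also lay below the Nkx2-5 KO (-1.81 ± 0.24, adjusted p = 0.00127) and below the Tbx5 KO (-1.19 ± 0.24, adjusted p = 0.00661), and these 3 calls held in all 20 alternatives.

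In Tbx5 KO hearts Vcam1 fell by 1.20 ± 0.24 (2.30-fold, adjusted p = 0.0209). That call ended without WT replicate 1 (0.0717) or WT replicate 3 (0.0718) and with only the groups compared in the fit (0.0551). In Nkx2-5 KO hearts it was -0.59 ± 0.24 (adjusted p = 0.207, interval -1.10 to -0.07), which was called only with those 2 groups alone in the fit (0.0363). The sum of the 2 single changes was -1.79, and the gap between the double KO and that sum was -0.60 ± 0.34 (adjusted p = 0.668, interval -1.33 to 0.13).

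**Figure D2:**
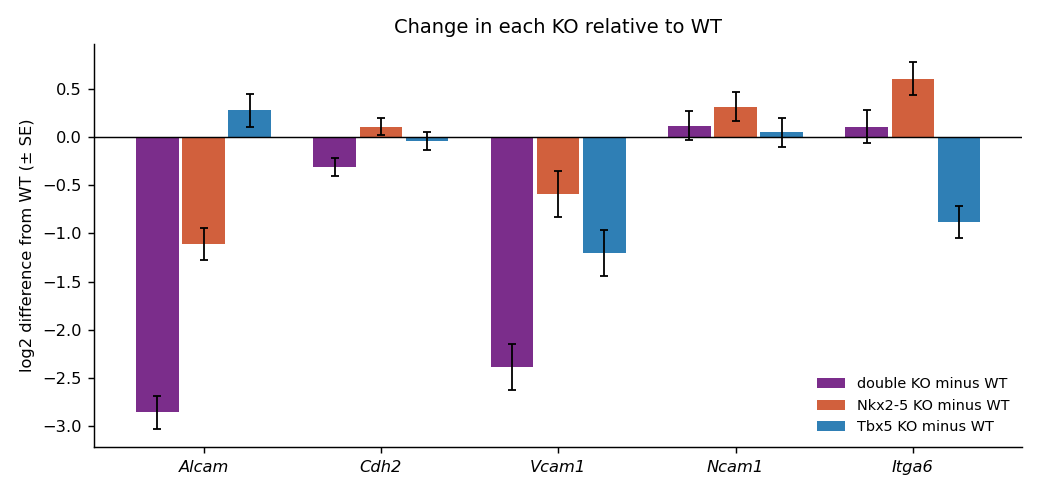
Log2 difference from WT (vertical axis, bars, ± SE from the limma fit, 3 arrays in each group) of the 5 genes in double KO, Nkx2-5 KO and Tbx5 KO hearts. The longest bars are Alcam at -2.86 and Vcam1 at -2.39 in the double KO, and Itga6 points up in the Nkx2-5 KO and down in the Tbx5 KO.

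Itga6 fell in Tbx5 KO hearts and was not called in Nkx2-5 KO or double KO hearts, where its mean was above that of WT. It read 12.61, 12.50 and 12.36 in double KO hearts, 13.20, 12.76 and 13.01 in Nkx2-5 KO hearts, 11.47, 11.14 and 11.89 in Tbx5 KO hearts, and 12.46, 12.40 and 12.26 in WT hearts. The Nkx2-5 KO values lay above all others and the Tbx5 KO values below all others, while double KO and WT values overlapped. In Tbx5 KO hearts Itga6 fell by 0.88 ± 0.17 (1.84-fold, adjusted p = 0.018). The call ended without WT replicate 1 (0.067), Tbx5 KO replicate 1 (0.0631) or Tbx5 KO replicate 2 (0.0541), and with only the groups compared (0.0517).

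In Nkx2-5 KO hearts Itga6 was 0.61 ± 0.17 (adjusted p = 0.0602, interval 0.25 to 0.98), short of the threshold and past it in 8 of 20 alternatives, among them without Nkx2-5 KO replicate 2 (0.0469), Tbx5 KO replicate 2 (0.0338) or Tbx5 KO replicate 3 (0.0271). Set against each other, the single mutants differed, with Tbx5 KO minus Nkx2-5 KO at -1.49 ± 0.17 (2.81-fold lower, adjusted p = 0.000367), a call that held in all 20 alternatives. The double KO lay 0.99 ± 0.17 above the Tbx5 KO (adjusted p = 0.00255), also in all 20, and differed from the Nkx2-5 KO by -0.50 ± 0.17 (adjusted p = 0.108).

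Against WT, Itga6 in the double KO differed by 0.11 ± 0.17 (adjusted p = 0.657, interval -0.25 to 0.48). The single changes summed to -0.27, and the gap to that sum was 0.38 ± 0.24 (adjusted p = 0.718).

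Cdh2 was slightly lower in double KO hearts and was not called in either single KO. Its level was 11.26, 11.21 and 11.34 in double KO hearts, 11.74, 11.59 and 11.72 in Nkx2-5 KO hearts, 11.57, 11.52 and 11.52 in Tbx5 KO hearts, and 11.64, 11.64 and 11.45 in WT hearts. All double KO values lay below all others, and the 2 single KOs each overlapped WT. In double KO hearts Cdh2 fell by 0.31 ± 0.09 from WT (1.24-fold, adjusted p = 0.0232) and by 0.41 ± 0.09 from the Nkx2-5 KO (adjusted p = 0.0169), and it was -0.27 ± 0.09 from the Tbx5 KO (adjusted p = 0.0764).

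The Cdh2 calls changed with single arrays and with scaling. The call against WT ended without replicate 1 or 2 of the double KO (adjusted p = 0.0597 and 0.0849) or of WT (0.084 and 0.0754), and that against the Nkx2-5 KO without Nkx2-5 KO replicate 1 (0.074) or double KO replicate 2 (0.072). After a further quantile normalization the difference from WT was -0.08 (adjusted p = 0.523) and that from the Nkx2-5 KO was -0.27 (0.0935), while the difference from the Tbx5 KO passed with arrays centred on their medians (0.0344). The spread of log2 values over probe sets was narrower on the double KO arrays (SD 2.05 to 2.10) than on the WT arrays (2.17 to 2.19), and its part in this result was not tested. In Nkx2-5 KO hearts Cdh2 was 0.11 ± 0.09 (adjusted p = 0.627, interval -0.09 to 0.30) and in Tbx5 KO hearts -0.04 ± 0.09 (adjusted p = 0.905, interval -0.23 to 0.15).

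Ncam1 was not called in any comparison. It read 8.90, 8.80 and 8.51 in double KO hearts, 8.72 to 9.08 in Nkx2-5 KO hearts, 8.72, 8.83 and 8.46 in Tbx5 KO hearts, and 8.41, 8.86 and 8.58 in WT hearts. All genotypes overlapped. Its largest difference from WT was 0.32 ± 0.15 in the Nkx2-5 KO (adjusted p = 0.301, interval -0.01 to 0.65). In the double KO it was 0.12 ± 0.15 (interval -0.21 to 0.45), so a change as large as that of Vcam1 lay outside the interval.

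**Figure D3:**
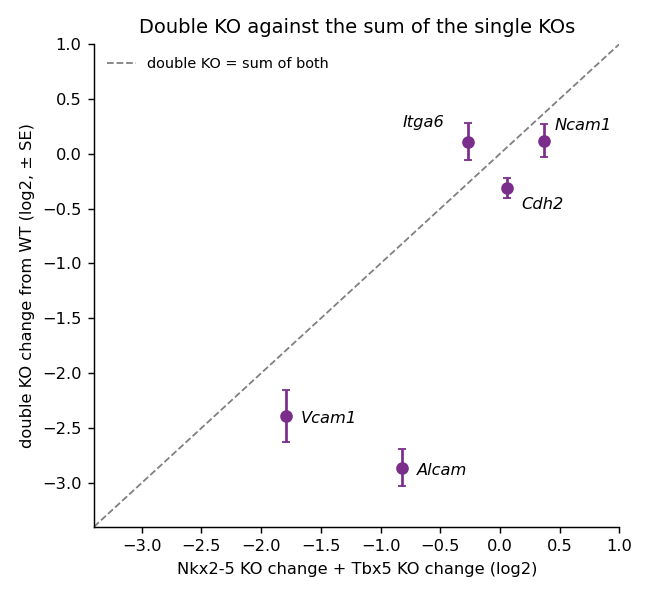
Log2 change from WT in double KO hearts (vertical axis, ± SE, 3 arrays in each group) against the sum of the Nkx2-5 KO and Tbx5 KO changes (horizontal axis). The dashed line marks equality. Alcam lies 2.04 below the line, and Cdh2, Vcam1, Ncam1 and Itga6 lie nearer to it, the farthest being Vcam1 at -0.60.

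Counted together, 2 of the 4 genes tested in double KO minus WT were called, both lower, in a comparison in which 23.4% of all genes were called and 14.4% were lower. In Nkx2-5 KO minus WT 1 of 5 was called, lower, against 4.43% of all genes called and 2.59% lower. In Tbx5 KO minus WT 2 of 5 were called, both lower, against 2.31% called and 1.31% lower. Between double and single KOs, 2 of 4 were called against the Nkx2-5 KO, both lower (5.56% of all genes called, 4.55% lower), and 2 of 4 against the Tbx5 KO (10.7%). In Tbx5 KO minus Nkx2-5 KO the count was 2 of 5 (2.39%). For the gap between the double KO and the sum of single changes it was 0 of 4, against 0.547% of all genes. All 3 mutant arrays lay below all 3 WT arrays for 18.7% of genes in the double KO, 12.6% in the Nkx2-5 KO and 11.4% in the Tbx5 KO. No such share is given for values above WT or for a genotype apart from all others. Those separations of single genes are therefore descriptions only. With so few genes, chosen with these results known, the shares describe the 5 and no more.

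The genes whose profile over the 12 arrays was most like that of Alcam were found among the 4095 genes whose group means spanned at least 0.5 log2 units. They were Epb41l3, a protein that ties membrane proteins to the cytoskeleton (Pearson r = 0.969), Cenpk of the kinetochore (0.968), Fignl1, an ATPase of DNA repair (0.966), Ckap2 of the mitotic spindle (0.965) and the co-chaperone gene Stip1 (0.965). Mean levels of Epb41l3 were 10.32 (double KO), 10.80 (Nkx2-5 KO), 11.23 (Tbx5 KO) and 10.97 (WT). Cenpk averaged 10.02, 11.42, 11.93 and 11.85 in the same groups. The arrays share 4 group means, so these correlations describe mainly differences between groups, among them the double KO fall that chose Alcam. The order of the groups was not always shared. Stip1 averaged 12.37 in Tbx5 KO and 12.46 in WT hearts, whereas Alcam was higher in Tbx5 KO than in WT hearts.

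Around these 5 molecules, 124 further adhesion genes in 7 lists were measured, and 31 were called in double KO minus WT (20 higher and 11 lower), a share close to the 23.4% of all genes, of which more were lower (14.4%) than higher. In Nkx2-5 KO 6 were called (4.8%, 5 higher and 1 lower), against 4.43% of all genes, and in Tbx5 KO 10 (8.1%, 4 higher and 6 lower), against 2.31%. The counts of the single lists are read against these same shares, and whether a list differs from all genes was not tested. Their median log2 difference was 0.11 for double KO, 0.04 for Nkx2-5 KO and 0.02 for Tbx5 KO hearts, where all genes had medians of 0.06, 0.00 and 0.01.

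Among integrin subunits, the partners of Vcam1 and the relatives of Itga6, 4 of 24 were called in double KO (2 higher, 2 lower), 0 in Nkx2-5 KO and 3 in Tbx5 KO, all lower, where 23.4%, 4.43% and 2.31% of all genes were called. Itga4, the alpha 4 subunit that binds Vcam1, read 7.61, 7.38 and 7.49 in double KO hearts, 8.61, 7.82 and 8.95 in Nkx2-5 KO hearts, 7.68, 7.28 and 7.47 in Tbx5 KO hearts, and 8.50 to 9.99 in WT hearts. It fell by 1.59 ± 0.34 in double KO (adjusted p = 0.00463, held in all 20 alternatives) and by 1.60 ± 0.34 in Tbx5 KO (adjusted p = 0.0281, held in 14 of 20). Every array of both these groups read below the array medians over all probe sets (8.05 to 8.25). The effect of low signal on the size of these falls was not tested. The high WT value came from replicate 2, the array with the high epicardial markers, and their part in this result was not tested. Without that array the Tbx5 KO call held. It ended without WT replicate 3 (0.054) or any of the Tbx5 KO arrays (0.0635 to 0.0918).

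Itga9, which encodes another alpha subunit that binds Vcam1, fell by 0.81 ± 0.17 in Tbx5 KO (adjusted p = 0.0251, held in 14 of 20) whereas its double KO level was raised by 0.60 ± 0.17 (adjusted p = 0.0194, held in 16 of 20). The double KO exceeded the Tbx5 KO by 1.41 ± 0.17 (adjusted p = 0.000252). Itgb8, a beta subunit that pairs with alpha v, fell by 1.06 ± 0.25 in Tbx5 KO (adjusted p = 0.0448, held in 8 of 20), and Itga5, the alpha subunit of a fibronectin receptor, fell by 0.69 ± 0.14 in double KO (adjusted p = 0.00288). Itga10, a collagen-binding subunit, rose by 0.37 ± 0.12 in double KO (adjusted p = 0.0348, held in 13 of 20).

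**Figure D4:**
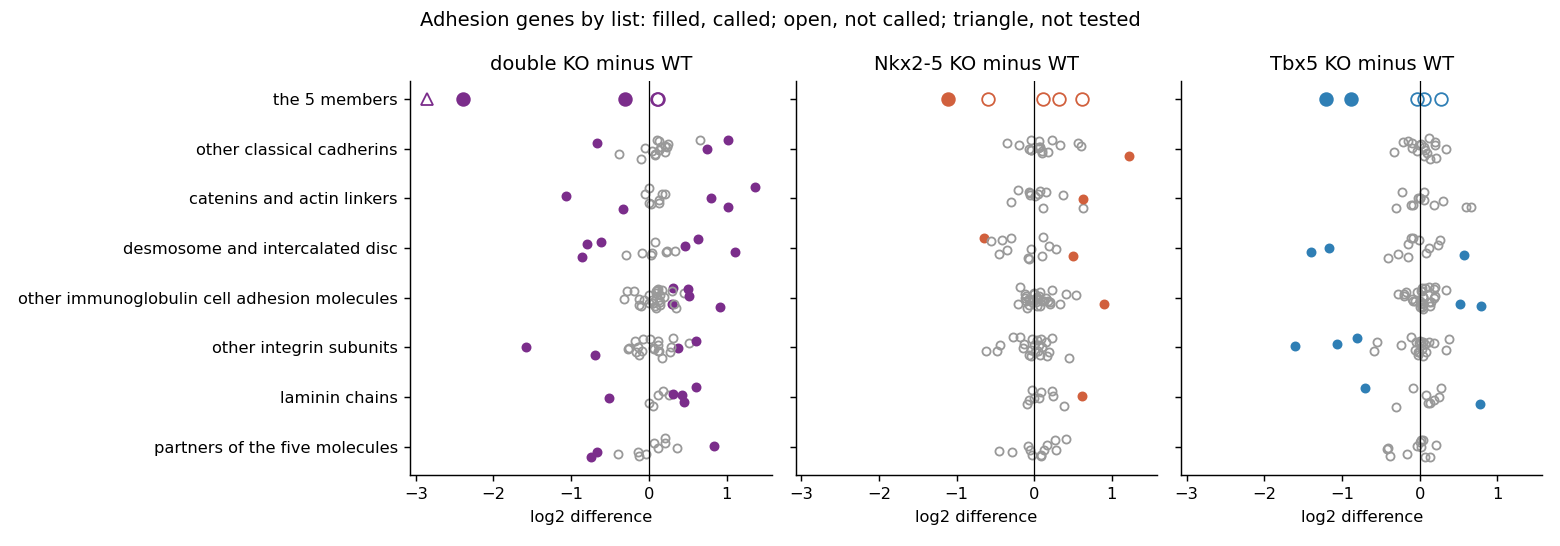
Log2 difference from WT (horizontal axis) in double KO, Nkx2-5 KO and Tbx5 KO hearts for the 5 genes (top row) and for 7 lists of other adhesion genes (rows, 1 point for each gene, jittered vertically). Filled points were called and open points were not, and the triangle is Alcam in the double KO, which was not tested. Apart from Alcam and Vcam1, no double KO point lies beyond -1.59 or 1.37.

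Laminin chains, the matrix ligands of Itga6 receptors, were called for 5 of 10 in double KO (4 higher, 1 lower), for 1 in Nkx2-5 KO and for 2 in Tbx5 KO, against 23.4%, 4.43% and 2.31% of all genes. Lama4, a chain of vessel and muscle basement membranes, fell in double KO (-0.52 ± 0.13, adjusted p = 0.0106) and in Tbx5 KO (-0.71 ± 0.13, adjusted p = 0.0129, held in 17 of 20). The double KO call of Lama4 ended after a further quantile normalization (0.157), and its Tbx5 KO call without replicate 1 or 3 of the Tbx5 KO (0.0604 and 0.0514) or WT replicate 3 (0.0591). Lama1, a chain of early embryonic basement membranes, rose in Tbx5 KO (0.77 ± 0.16, adjusted p = 0.0262, held in 13 of 20) and Lama3, an epithelial chain, rose in double KO (0.60 ± 0.13) and in Nkx2-5 KO (0.61 ± 0.13, adjusted p = 0.021, held in 16 of 20).

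Among 18 other cadherins, listed as relatives of Cdh2, 3 were called in double KO, 1 in Nkx2-5 KO and 0 in Tbx5 KO. Cdh1, the epithelial E-cadherin, read 8.57, 8.37 and 8.96 in double KO and 8.86, 9.51 and 8.12 in Nkx2-5 KO hearts, against 7.90, 7.88 and 7.65 in Tbx5 KO and 7.72, 7.31 and 7.80 in WT hearts. It rose by 1.02 ± 0.28 in double KO (adjusted p = 0.0173) and by 1.22 ± 0.28 in Nkx2-5 KO (adjusted p = 0.028, held in 13 of 20). The double KO call ended without WT replicate 2 (0.0672) or double KO replicate 3 (0.0599), and the Nkx2-5 KO call without any WT array or Nkx2-5 KO replicate 1 or 2 (0.0576 to 0.101). Markers of foregut and visceral endoderm, of which Cdh1 is 1, were higher for 3 of 11 in double KO and for 2 of 11 in Nkx2-5 KO, with a mean level of 8.93 over the double KO arrays and 8.86 over the Nkx2-5 KO arrays (8.62 to 9.08), against 8.51 over the WT arrays (8.37 to 8.78). The highest WT array lay above the lowest array of either mutant. Over all genes, 23.4% were called in double KO and 4.43% in Nkx2-5 KO. The part of the endoderm markers in the Cdh1 result was not tested. Cdh13, a cadherin anchored in the membrane by a lipid, rose in double KO (0.74 ± 0.17) and Cdh3, the placental cadherin, fell (-0.67 ± 0.16).

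The proteins that couple cadherins to actin were called for 5 of 13 in double KO, 3 higher and 2 lower, for 1 in Nkx2-5 KO and for 0 in Tbx5 KO. Ctnna3, the alpha catenin of heart muscle and testis, rose by 1.37 ± 0.24 in double KO (adjusted p = 0.00134), Jup (plakoglobin) by 1.02 ± 0.15 (adjusted p = 0.000356) and Afdn, the actin linker of nectins, by 0.80 ± 0.11. Afdn also rose in Nkx2-5 KO, by 0.63 ± 0.11 (adjusted p = 0.0107, held in 18 of 20), and was not called once replicate 1 of WT (0.0527) or of the Nkx2-5 KO (0.0582) was removed. Pkp4, a relative of p120 catenin, fell by 1.06 ± 0.19 in double KO (adjusted p = 0.00137), and Ctnnb1 (beta catenin) by 0.33 ± 0.10, a call that held in 14 of 20 alternatives. It ended after a further quantile normalization (adjusted p = 0.468), with only the groups compared (0.085), and without WT replicate 2 or 3 (0.103 and 0.102) or replicate 1 or 2 of the double KO (0.109 and 0.103).

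Desmosome and intercalated disc genes split evenly in the double KO, with 3 of 14 higher and 3 lower, and 2 were called in Nkx2-5 KO and 3 in Tbx5 KO. Dsc2, a desmosomal cadherin, read 9.25, 9.09 and 9.26 in double KO and 8.53, 8.67 and 8.81 in Tbx5 KO, against 9.99, 10.42 and 9.79 in WT hearts. It fell by 0.86 ± 0.16 in double KO (adjusted p = 0.00166) and by 1.40 ± 0.16 in Tbx5 KO (adjusted p = 0.000579), and the gap junction gene Gja1 fell by 1.16 ± 0.18 in Tbx5 KO (adjusted p = 0.00592). Lmo7, a cytoskeletal linker of cell junctions, rose by 1.11 ± 0.11 in double KO (adjusted p = 3.13e-05), and Dsp (desmoplakin) by 0.63 ± 0.12 in double KO and by 0.50 ± 0.12 in Nkx2-5 KO (adjusted p = 0.0312, held in 13 of 20). Xirp1, the other gene of this list called in Nkx2-5 KO, was lower there (-0.65) and in double KO (-0.80). Gja1 was also called lower in double KO (-0.62).

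Among other immunoglobulin-type adhesion molecules, the relatives of Alcam, Vcam1 and Ncam1, 5 of 33 rose and 0 fell in double KO, 1 rose in Nkx2-5 KO and 2 rose in Tbx5 KO. All genes were called for 23.4%, 4.43% and 2.31% in these comparisons. F11r, the tight junction molecule JAM-A, rose by 0.92 ± 0.17 in double KO (adjusted p = 0.00179) and by 0.90 ± 0.17 in Nkx2-5 KO (adjusted p = 0.0135, held in 18 of 20). Nectin1, a ligand of other nectins, rose by 0.79 ± 0.15 in Tbx5 KO (adjusted p = 0.02, held in 16 of 20), and Sdk1, known from retinal synapses, by 0.51 ± 0.09 in double KO and 0.52 ± 0.09 in Tbx5 KO, where the call ended without Tbx5 KO replicate 1 (0.0566).

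Of 12 partner molecules of the 5 proteins, 3 were called in double KO and 0 in either single KO. St8sia4, which adds polysialic acid to Ncam1, rose by 0.84 ± 0.24 in double KO (adjusted p = 0.0244, held in 14 of 20). Ezr (ezrin), which links membrane proteins to actin, fell by 0.74 ± 0.15 and Cd151, a tetraspanin that binds laminin receptors, by 0.66 ± 0.13 (adjusted p = 0.0039 and 0.00288).

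**Figure D5:**
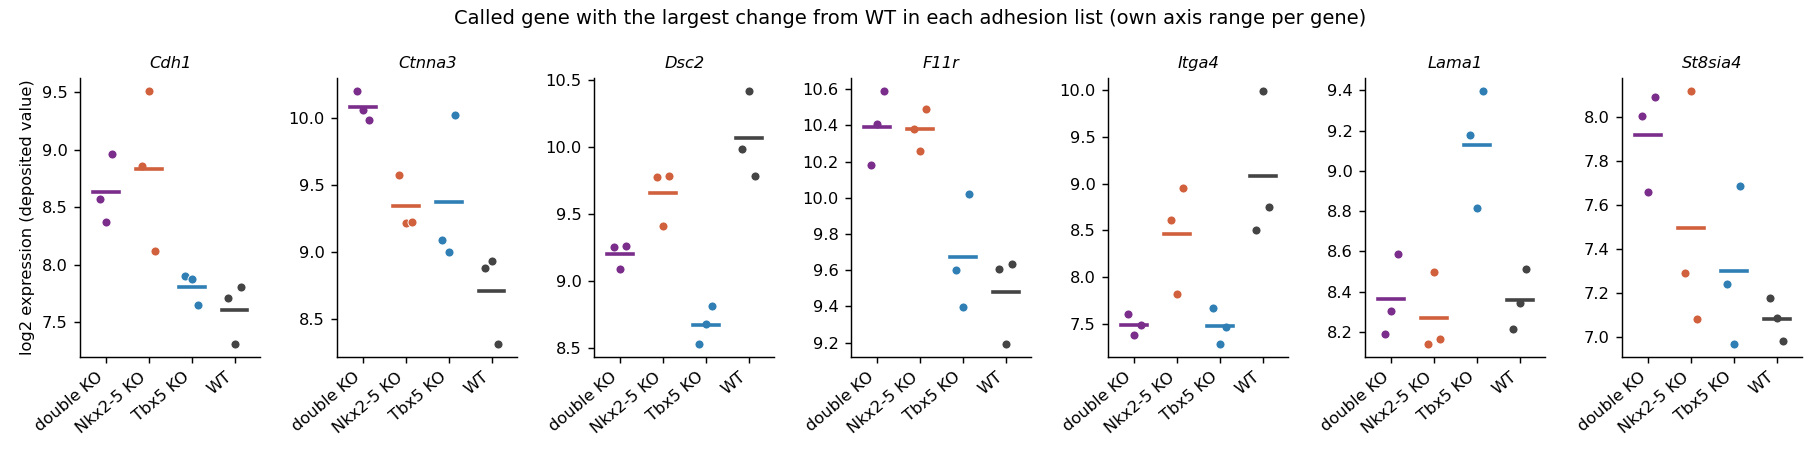
Deposited log2 expression (vertical axes, own range for each gene) in double KO, Nkx2-5 KO, Tbx5 KO and WT hearts of the called gene with the largest change from WT in each of the 7 lists. Points are arrays and lines means of 3 arrays. Cdh1 and F11r were high in double KO and Nkx2-5 KO hearts, Itga4 and Dsc2 were low in double KO and Tbx5 KO hearts, Lama1 was high in Tbx5 KO hearts, and Ctnna3 and St8sia4 were highest in double KO hearts.

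Markers of the cells in the dissected tissue were read beside these results, and their counts are of called genes. Of all genes, 23.4% were called in double KO (14.4% lower), 4.43% in Nkx2-5 KO and 2.31% in Tbx5 KO. Whether a marker list differs from all genes was not tested. Cardiomyocyte markers split in the double KO, with 3 of 15 higher and 3 lower, and their mean level was 13.08 to 13.10 in double KO, 13.08 to 13.25 in Nkx2-5 KO, 13.14 to 13.22 in Tbx5 KO and 13.12 to 13.19 in WT hearts. Myh6 and Myh7, the heavy chains of cardiac myosin, differed from WT by -0.81 and 0.40 in the double KO. Endocardial and endothelial markers were lower for 5 of 12 and higher for 1 in double KO, with Tek, a receptor of endothelial cells, at -1.19 and Flt1, a receptor of vascular growth factor, at 1.09. Of 8 epicardial markers 3 were lower in double KO and 1, Tbx18, in Tbx5 KO. Of 8 red cell markers 4 were lower in double KO, with a mean level of 9.30 to 9.98 against 9.88 to 11.41 in WT hearts. The lowest of these WT levels was that of replicate 2, and the other WT arrays had 11.41 and 11.18. Trophoblast and decidua markers were higher for 3 of 7 in Tbx5 KO, with a mean level of 7.57 to 7.84 there and 6.20 to 6.24 in WT hearts. Neural markers were higher for 2 of 12 and lower for 1 in double KO, and neural crest and pharyngeal markers were lower for 2 of 10. In all 3 mutants the neural factor gene Pax6 was called higher (1.85 in double KO, 1.70 in Nkx2-5 KO and 0.97 in Tbx5 KO) and the neuronal tubulin gene Tubb3 lower. The part of these cells in the adhesion gene results was not tested.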

How the data were processed

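The deposited table holds log2 expression values per probe set, which the authors summarized and normalized by a method not given in the sources used here. Per the labels' protocols, PicoPure columns gave total RNA, and NuGEN kits (Ovation, Encore) were used for amplification and biotin labelling. Values ran from 3.21 to 14.7 over 35557 probe sets, with array medians of 8.05 to 8.25 and 0 identical pairs of arrays. Nothing further was applied. Probe sets with exactly 1 symbol in the platform annotation (21789) were kept, and for each gene the one with the highest mean over the 12 arrays.

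limma 3.58.1 in R 4.3.3 fitted 4 group means (lmFit, eBayes, 8 residual degrees of freedom). Tests were two-sided. Calls required a Benjamini-Hochberg adjusted p under 0.05, with the adjustment made in each comparison over 19938 genes. Differences carry ± SE from this fit. The fit was tested on simulated data. The non-additive gap is double KO minus both single KOs plus WT. The p-values measure the spread between arrays that the titles number as biological replicates. For arrays, their number limits the precision.

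The 5 genes and the lists (216 entries, 207 measured) were chosen with earlier results of these data known. Named are the 5 genes, up to 3 called genes per direction of each adhesion list in each comparison with WT, up to 2 of each marker list, and the genes most like each of the 5 by Pearson r. Alternatives were 8 other settings and leaving out each of the 12 arrays. Replicate numbers were not used to pair the arrays in the main fit. Promoter sequence is from RefSeq (GRCm38.p6).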

Additional observations from a re-analysis of the deposited data

Results flagged for a closer look

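The gap between the double KO and the sum of both single KO changes was itself tested. Alcam was left out here, as were genes named only for a profile like that of Alcam, Cdh2, Vcam1, Ncam1 or Itga6. Among the other named genes, the gap passed for 3. For Itga9, an integrin subunit, it was 1.17 ± 0.23 (limma adjusted p = 0.049, called in 7 of 19 alternatives). For the placental genes Prl3d3 and Prl8a2 it was -5.62 ± 0.49 and -2.87 ± 0.38 (adjusted p = 0.000585 and 0.00646). Both belong to the trophoblast and decidua markers, whose mean level was 7.57 to 7.84 in Tbx5 KO and 6.20 to 6.24 in WT hearts, and the part of such cells in this result was not tested. Mean levels of Prl3d3 were 5.39 (double KO), 6.69 (Nkx2-5 KO), 9.89 (Tbx5 KO) and 5.57 (WT).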

How the results depend on the processing

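Calls of Cdh2 and the Tbx5 KO calls of Vcam1 and Itga6 changed with the settings, the cause being untested. Cdh2 in double KO minus WT was -0.08 after a further quantile normalization and -0.31 with only the groups compared (adjusted p 0.523 and 0.0639), and -0.37 to -0.28 without single arrays. Against the Nkx2-5 KO it was -0.27 and -0.41 in the same settings (0.0935 and 0.0675), and -0.46 to -0.38 without single arrays. Against the Tbx5 KO it passed with centred arrays (-0.34) and array weights (-0.29). With only the groups compared, Vcam1 was -0.59 in Nkx2-5 KO, now called, and -1.20 in Tbx5 KO, no longer called, and -0.88 to -1.41 in Tbx5 KO without single arrays. Itga6 in Nkx2-5 KO passed after quantile normalization (0.70), with array weights (0.73) and, at 0.61, with an intensity trend, only the groups compared or dim genes left out, and ran from 0.51 to 0.73 without single arrays. In Tbx5 KO it was -0.88 with only the groups compared and -1.07 to -0.70 without single arrays, and against the Nkx2-5 KO the double KO passed with array weights (-0.57). Of 90 calls of other named genes, 51 held in all 20 alternatives, and no call reversed.

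With array weights 2132 genes were called in Nkx2-5 KO minus WT (884 in the report's fit), 933 in Tbx5 KO minus WT (461), 2481 in double KO minus Nkx2-5 KO (1109), 1424 in Tbx5 KO minus Nkx2-5 KO (476) and 343 for the non-additive gap (109). With only the groups compared, 570 were called in double KO minus Nkx2-5 KO. Without single arrays the counts ran from 169 to 1091 in Nkx2-5 KO minus WT, 212 to 551 in Tbx5 KO minus WT, 521 to 1255 in double KO minus Nkx2-5 KO, 1300 to 2207 in double KO minus Tbx5 KO, 254 to 526 in Tbx5 KO minus Nkx2-5 KO and 48 to 264 for the gap. Deviations of same-numbered arrays from their group means correlated between -0.27 and 0.211, and the report's fit did not pair arrays by number. Whether same-numbered arrays shared a litter or batch is not given in the titles and cannot be told from these correlations. The replicate block gave 61 calls for the gap, and changed no call of the 5 genes.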

Other observations

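The profiles of the other 4 genes over the 12 arrays were closest to those of a different set of genes each. Vcam1 ran closest with Ugp2, an enzyme of sugar nucleotide synthesis (Pearson r = 0.955), Nkrf, a transcription repressor (0.952), and Tnni3, cardiac troponin I (0.949). Itga6 ran closest with Spty2d1, a histone chaperone (0.966), Trim24, a transcription cofactor (0.949), and Iqsec1, an activator of Arf proteins (0.937). Cdh2 ran closest with Rcan1, a calcineurin regulator (0.938), and Ncam1 with Pecam1, the endothelial adhesion molecule (0.883). Mean levels of Pecam1 were 10.26 (double KO), 10.65 (Nkx2-5 KO), 10.01 (Tbx5 KO) and 10.11 (WT).

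Among the 5 genes, Alcam correlated with Vcam1 at 0.723, with Cdh2 at 0.664, with Ncam1 at -0.193 and with Itga6 at -0.498. Vcam1 correlated with Itga4, the gene of its receptor subunit, at 0.714, but with Itga9, the gene of another subunit that binds it, at -0.326. Itga6 correlated with Itga9 at 0.728 and with Itga4 at 0.440. All are over 12 arrays that share 4 group means, and are given as descriptions.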
